A study of Mus musculus with 8 samples.

Results

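Forepaw skin of PAC1R KO mice was compared between PACAP and vehicle at 60 min after an intradermal injection. The comparison was taken from the array titles and holds 2 of the 8 arrays of the series, which carry the same pair of RNA samples in swapped dyes. The KO mice are Adcyap1r1 -/-, in the vehicle sample as well as in the PACAP sample. The other 3 comparisons are the same genotype at 30 min and WT mice (C57BL/6) at 30 and 60 min, each with a vehicle sample of its own. All animals were male, 9 to 10 weeks old and anaesthetized, and the strain of every sample is labelled C57BL/6J. The centre of the footpad received 5 microlitres of saline with 0.1% BSA, with PACAP at 10-7 mol/L or without it. The paws of several mice of each genotype were injected and the skin samples ground one by one, but the sources used here do not say how the mice were divided among the RNA samples of the arrays or if RNA was pooled. The comparison therefore has 1 pair of RNA samples and no replicate between animals. Both arrays count as 1 replicate here, and their values are given side by side as the technical error. How the deletion was made is also not named, and KO and WT samples were hybridised on different slides, so slide and genotype cannot be told apart.

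PACAP is a neuropeptide of the VIP family. It binds PAC1R with high affinity, and it also binds VPAC1 and VPAC2, the receptors that it shares with VIP. All of these are G protein-coupled receptors that raise cAMP. In skin, PACAP is released from nerve fibres and acts on blood vessels, immune cells, keratinocytes and sweat glands. Palm skin has a thick epidermis with eccrine glands. When the epidermis is irritated or wounded, its keratinocytes switch on keratins 6, 16 and 17, small proline-rich proteins and antimicrobial proteins, which are low in resting skin.

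The arrays held 39429 probes for 29608 gene names after 1377 control spots were set aside. A signal well above background was measured at 90.4% and 94.5% of the spots in the red channel of the 2 arrays, and at 62.8% and 65.3% in the green. Markers of the epidermis were measured 7 of 7 in both channels, at log2 levels between 11.9 and 16.3 over the 8 RNA samples of the series. Of the eccrine gland markers 8 of 8 were measured in both channels. Among the 8 RNA samples, the vehicle sample of KO at 60 min had the highest summed level of eosinophil and alternatively activated macrophage markers (14.1, against 12.8 to 13.1 in the other 7). Its summed level of hair shaft markers was also the highest at 14.37, with 13.95 in the PACAP sample beside it. The main genes and groups are given without it near the end. The calls, the overlaps with other comparisons and limma all rest on it. A ratio is the PACAP signal over the vehicle signal, as log2, averaged over both arrays. A probe was called up-regulated or down-regulated when this mean was at least 2.0-fold, with the same direction on both arrays and a Feature Extraction p below 0.01 on each. This p is the scanner software's estimate for 1 spot on 1 array, so a call is a rule of size and no test across animals. A level is a log2 intensity of 1 RNA sample on another scale, which adds a constant to every signal, so dim probes differ less in level than in ratio. In such bulk samples, fewer cells of a type and less RNA per cell cannot be told apart.

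The deleted gene was checked first. Adcyap1r1, which encodes PAC1R, has 1 probe, at mm9 chr6:55450829-55450888. The level of Adcyap1r1 in KO skin at 60 min was 8.56 with vehicle and 8.42 with PACAP, and at 30 min 7.98 and 7.91. In WT skin it was 8.67 and 8.76 at 60 min, and 8.29 and 8.27 at 30 min. At each time both KO samples thus lay below both WT samples, while the KO levels at 60 min lay within the range of the 4 WT samples. With 1 pair of RNA samples for each comparison, this order was not tested against the spread between animals. Whether the probe lies outside the deleted part was not tested, and the samples are called KO by their labels. The 7 genes of PACAP, VIP and their receptors had log2 ratios between -0.59 and 0.08. Vip, which encodes VIP, had -0.59 (-0.36 and -0.82), with a level of 5.95 in both samples, and Adcyap1, which encodes PACAP, had -0.06. Vipr1, which encodes VPAC1, had a log2 ratio of 0.08 and Vipr2, which encodes VPAC2, -0.07. Of the 7 genes 0 were called.

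At 60 min after PACAP treatment in KO mice, 56 probes for 54 gene names were up-regulated, and 59 probes for 49 gene names were down-regulated. These were 0.142% and 0.15% of the 39425 probes with a ratio. The median log2 ratio was 1.51 over the up-regulated probes, -1.49 over the down-regulated probes and 0.003 over all probes. After normexp background correction and loess, the scale of the levels, 29 up-regulated and 43 down-regulated probes still passed, and by the called probe with the largest change 42 of the 103 gene names were under 2.0-fold. On each single array 97 of the 115 called probes passed 2.0-fold, and their values on the arrays differed by a median of 0.23 and at most 1.76. Over all probes the ratios of the arrays correlated at r = -0.72, and over the 23722 probes well above background in both channels at r = -0.06. These r are across probes, which are no independent replicates. In the other comparisons r over all probes lay between -0.70 and -0.76, and over the probes well above background it was 0.42 in KO at 30 min, 0.18 in WT at 60 min and 0.37 in WT at 30 min. The arrays of KO at 60 min thus had the lowest r of the 4 comparisons over the well measured probes. Another 184 probes passed both thresholds on both arrays with opposite directions. All 184 had that same direction between the dyes in the other 3 comparisons as well, and the mean of the arrays left them at a median of 0.19 from 0.

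**Figure D1:**
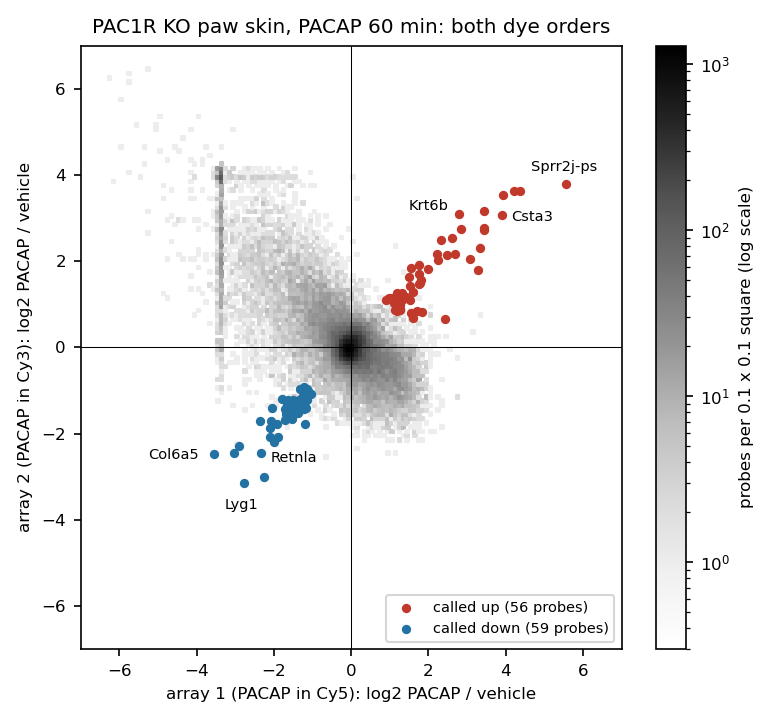
Log2 ratio of PACAP over vehicle on the array with PACAP in Cy5 (x axis) against the array with PACAP in Cy3 (y axis) for the probes of the KO comparison at 60 min. The 56 up-regulated probes lie in the upper right and the 59 down-regulated probes in the lower left, while most other probes past 2.0-fold on an array lie on the diagonal of opposite signs.

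The genes that PACAP-treated KO skin held at a higher level were led by the Sprr2 family. Sprr2 genes encode small proline-rich proteins, which transglutaminases cross-link into the cornified envelope of the outer epidermis. Of 12 Sprr2 genes on the array 8 were up-regulated, against 0.179% of all gene names by their brightest probe, and 0 were down-regulated. The median log2 ratio of the 12 was 1.39, and it was 0.61 in KO at 30 min, 1.11 in WT at 60 min and -0.09 in WT at 30 min. The 8 lie together on chromosome 3 of mm9 between 92093100 and 92237849, a stretch of 144.8 kb within the epidermal differentiation complex. With the 4 other genes of the small proline-rich family, 8 of 16 were up-regulated, with a median of 0.88 against 0.003 over all gene names. Of the same 16 genes 5 were up-regulated in KO at 30 min, 6 in WT at 60 min and 0 in WT at 30 min, with medians of 0.61, 0.61 and -0.05.

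Sprr2 genes resemble each other, so the 60-base probes of the most changed members are shown by a stretch of 30 bases, in which capitals mark the longest run that the probe shares with a probe of another Sprr2 gene.
Sprr2j-ps: cactggtgttctATTTCCTGAATAAAGTAC
Sprr2f: agtatgACATTTTTCAAATCTctctgtcac
Sprr2i: tttttcATTTCCTGAATAAAGTACcgtctt
Sprr2e: ttgtgttgtcattgtTGTTTCATTTCCTGA
Sprr2g: catttgCTGAATAAAGTAtaatcttttcaa
Over the 13 Sprr2 probes these runs were between 7 and 18 bases long. The longest was shared by the probes of Sprr2i and Sprr2j-ps. Probes were compared with each other and not with the transcripts. Cross-hybridisation between the transcripts of the family was not tested, so the split of signal between single Sprr2 genes is uncertain.

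Sprr2j-ps, annotated as a pseudogene, had a log2 ratio of 4.67, with 5.54 and 3.79 on the arrays. Its level was 6.11 with vehicle and 8.22 with PACAP, and between 5.96 and 6.83 in the other 6 samples. For this gene and for Sprr2f the vehicle signal was measured well above background on a single array, so that the sizes of their ratios are uncertain. After normexp and loess the ratio of Sprr2j-ps was 2.11 and that of Sprr2f 1.80, below Lce3a (3.04), Sprr2i (2.83), Krt6b (2.82) and Csta3 (2.77). Sprr2f had a ratio of 3.92 (4.20 and 3.63). Its level was 6.14 with vehicle and 7.94 with PACAP. In KO at 30 min it went from 6.37 to 7.98, in WT at 60 min from 6.17 to 7.04, and in WT at 30 min it was 6.00 in both samples. The PACAP samples of KO thus lay above WT at both times. Sprr2i had a ratio of 3.73 (3.92 and 3.54), with levels of 6.84 and 9.67. Its PACAP level was higher than in each of the other 7 samples, of which the highest was WT at 60 min with 8.41. Sprr2g (3.10) and Sprr2e (3.08) followed, then Sprr2d (1.68), Sprr2k (1.10) and the brighter Sprr2a3 probe (1.01). After normexp and loess Sprr2k (0.78) and Sprr2a3 (0.91) were under 2.0-fold. Sprr2h and Sprr2b did not reach 2.0-fold, with 0.68 and 0.41. The bright Sprr2a2 probe was at -0.05, with a level of 14.4 in both samples, the brightest of the family.

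Promoters are shown for the members that moved together and for Sprr2h, which did not pass, as the 190 bases from position -205 to -16 before the transcription start in RefSeq (GRCm38.p6, plus strand), another build than the probe coordinates. Capitals mark the AP-1 motif TGANTCA, the octamer ATTTGCAT and the TATA motif TATAAA, searched on both strands.
Sprr2f, chr3:92364982-92365171: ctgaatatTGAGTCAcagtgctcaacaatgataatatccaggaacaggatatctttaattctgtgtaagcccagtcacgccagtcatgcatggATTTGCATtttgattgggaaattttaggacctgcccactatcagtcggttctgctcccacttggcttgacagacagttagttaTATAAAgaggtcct
Sprr2i, chr3:92407786-92407975: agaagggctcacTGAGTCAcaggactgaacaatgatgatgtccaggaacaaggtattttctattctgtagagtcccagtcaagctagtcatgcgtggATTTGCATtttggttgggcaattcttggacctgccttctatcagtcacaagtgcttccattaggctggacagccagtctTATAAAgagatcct
Sprr2e, chr3:92351938-92352127: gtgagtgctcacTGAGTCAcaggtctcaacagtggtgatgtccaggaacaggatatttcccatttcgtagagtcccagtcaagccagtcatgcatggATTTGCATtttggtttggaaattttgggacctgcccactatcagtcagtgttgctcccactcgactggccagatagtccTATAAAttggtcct
Sprr2d, chr3:92338935-92339124: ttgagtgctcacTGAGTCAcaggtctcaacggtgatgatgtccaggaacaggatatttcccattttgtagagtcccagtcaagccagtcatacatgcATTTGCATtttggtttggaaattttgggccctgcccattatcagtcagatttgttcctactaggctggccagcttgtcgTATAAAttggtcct
Sprr2h, chr3:92385480-92385669: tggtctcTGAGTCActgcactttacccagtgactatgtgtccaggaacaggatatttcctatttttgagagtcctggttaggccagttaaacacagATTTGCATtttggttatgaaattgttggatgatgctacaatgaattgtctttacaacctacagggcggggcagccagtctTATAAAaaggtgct
The 5 windows hold the motifs in the same order and at nearly the same distances. The AP-1 motif starts at -197 in Sprr2f, at -193 in Sprr2i, Sprr2e and Sprr2d, and at -198 in Sprr2h. The TATA motif starts at -29 in each of the 5. The windows of Sprr2d and Sprr2e were identical at 91.1% of positions, and those of Sprr2f and Sprr2i at 33.2% without gaps. The octamer starts at -112 in Sprr2f and at -108 in Sprr2i. These windows were thus compared with a shift, and 33.2% does not measure their likeness. Of the 10 Sprr2 genes with a RefSeq promoter, 7 held all 3 motifs in the 300 bases around the start. Of these 7, the 5 genes Sprr2d, Sprr2e, Sprr2f, Sprr2i and Sprr2k were up-regulated, while Sprr2h and Sprr2b were not called. Of the 3 without all motifs, Sprr2a3 was up-regulated, on 1 of its 2 probes. Of the 54 up-regulated gene names 29 had a promoter. Of these 6 (20.7%) held the AP-1 motif, against 8.97% of all 27025 promoters. They were Mmp13 and 5 Sprr2 genes, whose promoters resemble each other and are no independent cases. The cAMP response element TGACGTCA was in 0 of the 29 and in 2.03% of all promoters. A match is a description of these letters and not a binding site.

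Next to the Sprr2 genes, the late cornified envelope genes divided by subfamily. These genes encode further precursors of the cornified envelope, and the Lce3 group is known to rise in irritated epidermis. All 6 measured Lce3 genes had ratios above 0, between 0.66 and 3.30, and 2 of them were up-regulated, against 0.179% of all gene names. The median of the 6 was 0.94. In KO at 30 min it was 0.74, with all 6 between 0.44 and 2.64. The median was 0.04 in WT at 60 min and -0.23 in WT at 30 min. Lce3a had a ratio of 3.30 (3.43 and 3.17), with levels of 8.18 and 11.2, and its PACAP level was the highest of the 8 samples. Lce3e had a ratio of 1.10 (1.12 and 1.07). The 14 Lce1 genes, which belong to normal cornification, lay between -0.27 and 0.05, with a median level of 15.1 in both samples. Of 23 other epidermal differentiation genes, 0 were called, with a median of 0.17. Lor, which encodes loricrin, had a ratio of 0.19, and Flg, which encodes filaggrin, 0.16. Krt10, a keratin of the upper layers, was at -0.02.

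Keratins of activated epidermis were higher with PACAP. Of the 20 genes of wound keratins and keratinocyte activation, 4 were up-regulated and 0 down-regulated, against 0.179% and 0.159% of all gene names. The median log2 ratio of all 20 was 0.37. Of the same 20 genes 3 were up-regulated in KO at 30 min, 3 in WT at 60 min and 1 in WT at 30 min. Their medians there were 0.31, 0.15 and -0.11. The 4 up-regulated in KO at 60 min were Krt6b, Krt16, Krt6a and Krt17. The brighter Krt6b probe had a ratio of 2.94 (2.79 and 3.10). Its level went from 13.7 to 16.5, while the other 6 samples lay between 13.3 and 15.4. The other Krt6b probe had 1.61. Krt16, the partner of keratin 6, had a ratio of 2.43 (2.68 and 2.17) and went from 13.8 to 16.2. The level of Krt16 with vehicle lay between 13.6 and 15.2 over the 4 comparisons. Krt6a had 1.21 and Krt17 had 1.07. The PACAP level of the 4 keratins was the highest of the 8 samples for each. Krt14, the keratin of the basal layer, had a ratio of 0.42 and was not called. The predicted genes Gm5478 (2.42) and Gm5476 (1.45), which lie beside Krt6b on chromosome 15, were called as well.

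The stefin A genes encode inhibitors of cysteine proteases that are found in the epidermis and in neutrophils. By their brightest probes 4 of 8 were up-regulated, against 0.179% of all gene names. The median of the 8 was 0.79, and it was 1.26 in KO at 30 min. Csta3 had a ratio of 3.48 (3.89 and 3.08), with levels of 7.18 and 9.95. In KO at 30 min its level was 6.84 and 10.0, and in WT at 60 min 6.70 and 8.44. Csta3 was thus called in 3 of the 4 comparisons, and in WT at 30 min its ratio was 0.38. Stfa2 had 1.91, Stfa1 1.57 and Cstdc4 1.22 (0.91 after normexp and loess). Together with Cstdc6, the called stefin probes lie on chromosome 16 of mm9 between 36188043 and 36404089. Cstdc6 was of all up-regulated probes the one closest to the threshold, with a log2 ratio of 1.00 (0.24 after normexp and loess, with a dim vehicle signal), and Lce3b at 0.95 was among those not called.

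Antimicrobial and acute phase genes formed the next group. Of 32 antimicrobial effectors 6 were up-regulated and 1 down-regulated, against 0.179% and 0.159% of all gene names. The median of the list, however, was 0.06. Slpi, a secreted inhibitor of serine proteases such as neutrophil elastase, had a ratio of 2.58 (2.61 and 2.54). Its level was 10.2 with vehicle and 12.8 with PACAP, and in KO at 30 min 10.0 and 12.7. The 4 WT samples lay between 9.99 and 10.8, so the PACAP samples of KO did not overlap with any other sample. Defb4, a beta-defensin, had 2.31 (2.48 and 2.13). The serum amyloid A genes, acute phase proteins that are also made by epithelia, were up-regulated 3 of 3, with 2.79 for Saa3, 1.73 for Saa1 and 1.10 for Saa2 (0.85 after normexp and loess). The level of Saa3 was 9.02 with vehicle and 11.7 with PACAP, and in KO at 30 min 8.23 and 11.6. Among the 4 vehicle samples the one of KO at 60 min had the highest Saa3 level. S100a8 and S100a9, which form calprotectin, had 2.19 and 1.84, on chromosome 3 between 90473778 and 90496632. They were the only 2 of 18 S100 genes called. Their levels with vehicle were 11.7 and 12.6 and their levels with PACAP 13.9 and 14.5.

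Signals between cells were called in small numbers. Il19, a cytokine of the IL-10 family that acts on keratinocytes, had a ratio of 3.99 (4.36 and 3.62) on the probe with the larger change. That level was 6.20 with vehicle and 8.32 with PACAP, against 5.94 to 6.31 in the other 6 samples. With vehicle, the signal of this probe passed the background on a single array. A second Il19 probe had 1.06 (1.01 and 1.11), with levels of 7.26 and 7.99. Both Il19 probes had their highest level in this PACAP sample. The neighbouring Il20 and Il24, of the same family, had 0.14 and -0.04. Csf3, which encodes the granulocyte growth factor G-CSF, had 1.70 (1.54 and 1.85) at levels of 6.09 and 6.49. Cxcl5, a chemokine for neutrophils, had 1.63 (1.78 and 1.49), with levels of 8.20 and 9.64. In KO at 30 min its ratio was 4.87. Ccl4, a chemokine for monocytes and lymphocytes, had 1.05, and Fpr2, a receptor for formyl peptides on neutrophils, 1.08. Of 28 chemokines 2 were called up and 1 down, against 0.179% and 0.159% of all gene names, and their median was 0.18. Neither Il6 (0.82) nor Il1b (0.55) was called, and Cxcl9 was at -0.01. The proteases Mmp13, a collagenase, and Adamts4, which cleaves aggrecan, had 1.06 each, and they were the 2 called of 20 metalloproteinases and inhibitors. Nppb, which encodes the natriuretic peptide BNP, had 2.14, and Acod1, the enzyme that makes itaconate, 1.31. The transcript 2610528A11Rik on chromosome 14 had 1.30. Idi2, an isopentenyl diphosphate isomerase, had 2.82 on 1 of its 3 probes, and the other 2 had 0.33 and 0.07. With vehicle its signal was well above background on a single array, with levels of 5.98 and 6.74, and its ratio was 0.76 after normexp and loess. For Csf3 as well the vehicle signal was well above background on a single array. After normexp and loess Csf3 (0.40), Ccl4 (0.63), Fpr2 (0.42), Mmp13 (0.43), Adamts4 (0.54) and Acod1 (0.53) were all under 2.0-fold.

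Neutrophil markers were measured beside these genes, since several of them are also made by neutrophils. Of 20 neutrophil markers 1 was called, Fpr2, against 0.179% of all gene names called up. The median of the 20 was 0.22. After normexp and loess the median was 0.08, and the call of Fpr2 was lost. The summed level of 9 defining markers was 12.18 with vehicle and 12.36 with PACAP, against 12.21 to 12.79 in the other 6 samples, so the vehicle sample was the lowest of the 8. Of these 9 markers Ngp, Ltf and Mmp8 were not well above background in both channels on both arrays.

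**Figure D2:**
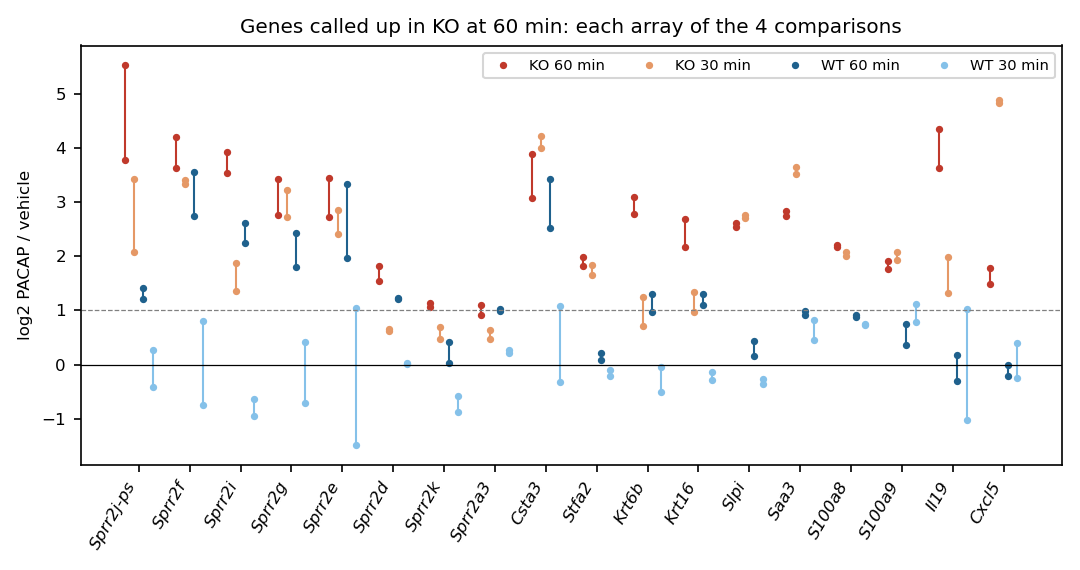
Log2 ratio of PACAP over vehicle on each of the 2 arrays in the 4 comparisons, for 18 genes up-regulated in KO skin at 60 min. A line joins the arrays of 1 comparison, and the dashed line marks 2.0-fold. In KO at 60 min the values of the arrays lie close together for Slpi (2.61 and 2.54) and furthest apart among the named genes for Sprr2j-ps (5.54 and 3.79).

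The largest named group among the down-regulated probes was that of genes of the hair shaft, with 24 of the 59 probes and 18 of the 49 gene names. Keratin-associated proteins fill the matrix between the keratin filaments of the hair. Of 53 such genes 17 were down-regulated by their brightest probe, against 0.159% of all gene names, 0 were up-regulated, and all 53 had a ratio below 0. The median was -0.50. On chromosome 16 there were 22 of them, of which 16 were down-regulated, with a median of -1.34 and a range from -2.74 to -0.50. The median level of the 22 was 11.5 with vehicle and 10.2 with PACAP, against 7.96 to 10.0 in the other 6 samples. On chromosome 11 the 22 measured genes had a median of -0.34, with 1 called, Krtap1-5 (-1.43), and 9 genes elsewhere had -0.32, with 0 called. The 16 genes on chromosome 16 lie in mm9 between 88751254 and 89508335, a stretch of 757.1 kb. Of all 59 down-regulated probes 42 (71.2%) lay on chromosome 16, which held 3.27% of the probes on the array.

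Krtap20-2 was read by 4 called probes. The brightest had a ratio of -1.28 (-1.31 and -1.25), with levels of 14.9 with vehicle and 13.7 with PACAP. In KO at 30 min its level went from 11.5 to 13.1, in WT at 60 min from 11.5 to 14.1, and in WT at 30 min from 13.1 to 12.2. The vehicle sample of KO at 60 min was therefore the highest of the 8, and its PACAP sample was second to WT at 60 min. Krtap6-1 showed the same order of levels at the top, with 11.6 and 10.2 here. Krtap19-1 had a ratio of -1.89 (-2.08 and -1.71) here and 5.25 in WT at 60 min, and Krtap13 had -2.74 (-3.03 and -2.44). The PACAP signal of Krtap13 was well above background on a single array, with levels of 7.03 and 6.11, and after normexp and loess its ratio was -0.92. Krt36, a hair keratin, had -1.98 and -1.61 on its 2 called probes and 0.32 on its other probe, which was not called. Of the 28 genes of the hair shaft and inner root sheath, Krt36 was the only one called, and their median was -0.49. For the keratin-associated proteins the medians in the other comparisons were 1.495 in KO at 30 min, 2.10 in WT at 60 min and -0.26 in WT at 30 min. The direction of this group thus differed between the 4 comparisons.

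Another group of down-regulated genes is made by eosinophils and by alternatively activated macrophages, which follow type 2 immune signals. Of 26 markers 4 were down-regulated, against 0.159% of all gene names. The median of the 26 was -0.28, or -0.11 after normexp and loess. The 4 were Retnla, Ear1, Ear2 and Ear12. Retnla, a secreted protein of alternatively activated macrophages, had a ratio of -2.39 (-2.32 and -2.46). Its level was 13.2 with vehicle and 10.8 with PACAP, and between 10.2 and 10.7 in the other 6 samples. Ear2, an eosinophil-associated ribonuclease, had -2.08 (-2.10 and -2.07), with levels of 9.50 and 7.78 and between 7.29 and 7.91 in the other 6 samples. Ear1 had -2.63 and Ear12 had -2.10, and all 7 measured Ear genes were below 0. For Retnla and the 3 Ear genes, the vehicle sample of KO at 60 min thus stood above the other 7, which lay close together. Ear genes are near-identical copies, so how the signal is split between them is uncertain. Ccl17, a chemokine for Th2 cells, had -1.84 (-1.91 and -1.77), with levels of 9.24 and 7.75. In WT at 60 min Ccl17 went from 8.02 to 9.17, so the vehicle sample here was as high as that PACAP sample. Cd209e, a lectin of dendritic cells and macrophages, had -1.06. Chil3, which also marks alternatively activated macrophages, had -0.95 and was not called, and Mrc1 was at 0.23. Of the defining markers, Epx, Ccr3 and Cd163 were not well above background in both channels on both arrays. The summed level of the 10 measured markers was 14.1 with vehicle and 13.1 with PACAP, against 12.8 to 13.1 in the other 6 samples.

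Other genes were down-regulated singly. Col6a5, a chain of collagen VI, had a ratio of -3.02 (-3.56 and -2.48), but its PACAP signal was not well above background on either array. It was therefore at least 1.37-fold lower with PACAP, and the second Col6a5 probe had 0.12. Lyg1, a lysozyme of the goose type, had -2.96, and its PACAP signal passed the background on a single array. Car4, a membrane-bound carbonic anhydrase, had -2.02 on 1 of its 2 probes and -0.21 on the other, brighter one. Mrgprg, a receptor of the Mas-related family, had -1.73, also with a PACAP signal above the background on a single array. Serpina3g, an intracellular protease inhibitor, had -1.49. After normexp and loess all 5 of these genes were under 2.0-fold, with -0.55 for Col6a5, -0.81 for Lyg1, -0.90 for Car4, -0.47 for Mrgprg and -0.99 for Serpina3g. The down-regulated probes closest to the threshold were those of Krtap7-1 and Cd209e, both at -1.06 and at -0.94 and -0.66 after normexp and loess.

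**Figure D3:**
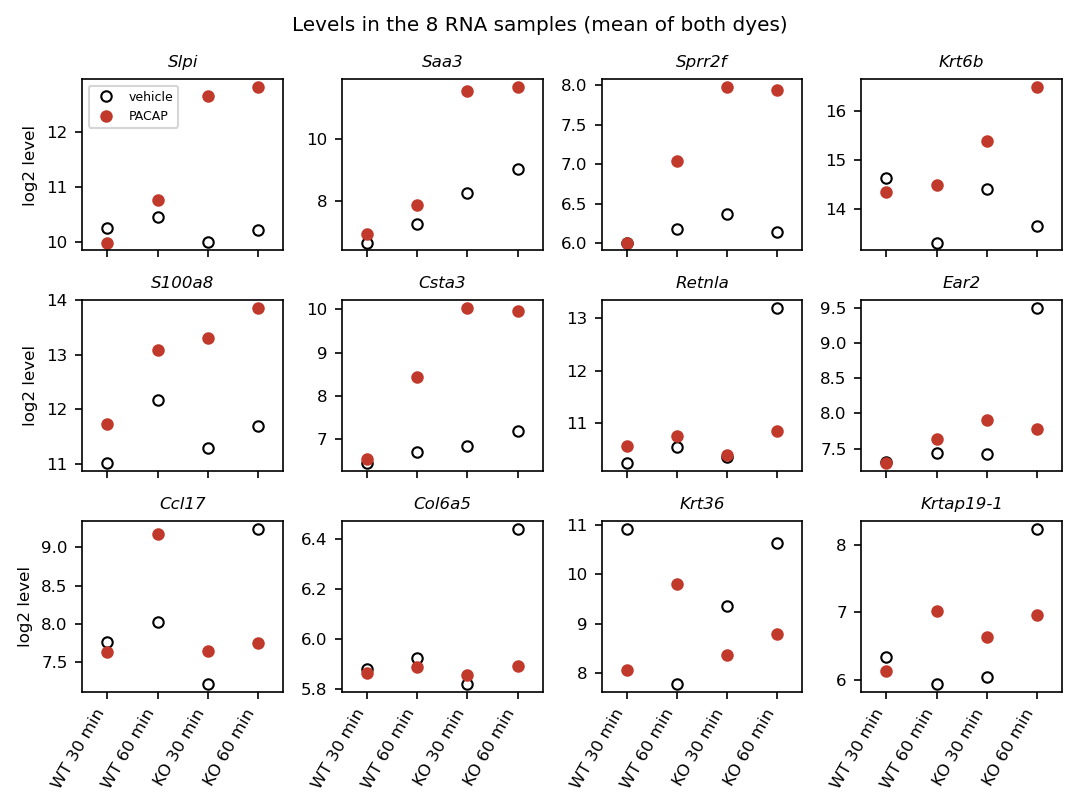
Log2 levels in the 8 RNA samples, vehicle and PACAP of each of the 4 comparisons, for genes of the up-regulated and down-regulated groups. Slpi is high in the PACAP samples of KO (12.8 and 12.7), whereas Retnla is high only in the vehicle sample of KO at 60 min (13.2).

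Levels of the called probes were also set side by side in all 8 samples. Of the 56 up-regulated probes 39 (69.6%) had their highest level in the PACAP sample of KO at 60 min, against 7.36% of all probes. Of the 59 down-regulated probes 52 (88.1%) had their highest level in the vehicle sample of KO at 60 min, against 13.1% of all probes. The PACAP sample was the lowest of the 8 for 3 of the 59. The call itself sets the PACAP sample above or below its own vehicle sample, so these counts are a description. The vehicle sample was compared with the mean of the other 3 vehicle samples by the median over probes. It lay 0.11 above for the up-regulated probes, 2.59 above for the down-regulated probes and -0.01 from it over all probes. When the vehicle sample of KO at 60 min was left out and the PACAP sample was set against the other 3 vehicle samples, the median was 1.35 for the up-regulated probes and 1.25 for the down-regulated probes. The other 3 vehicle samples differ from the PACAP sample in genotype, time or slide, so this difference cannot be attributed to PACAP. The same was done for single genes and lists, a setting chosen after seeing the data. The median over the 22 keratin-associated protein genes on chromosome 16 was a difference in level of -1.21 against their own vehicle and 1.63 against the other 3. For the 28 genes of the hair shaft and inner root sheath it turned from -0.42 to 1.32, and for the 26 eosinophil and macrophage markers from -0.11 to 0.10, with 18 of 26 above 0. Retnla turned from -2.35 to 0.48, Ear2 from -1.72 to 0.39, Ear12 from -1.48 to 0.11 and Ccl17 from -1.495 to 0.08, and Ear1 went from -1.40 to -0.08. Of the 49 down-regulated gene names 40 turned their direction, by the called probe with the largest change, and 9 did not, among them Krt36 (-0.57) and Krtap13 (-0.46). Of the 54 up-regulated gene names 6 turned. The 12 Sprr2 genes had a median of 1.26 against their own vehicle and 1.87 against the other 3. Among the up-regulated genes that kept their direction, Krt6b had 2.82 and 2.37, Csta3 2.77 and 3.29, Saa3 2.655 and 4.30, and Il19 2.12 and 2.34. The summed level of 6 hair shaft markers was 14.37 with vehicle and 13.95 with PACAP, against 11.9 to 13.9 in the other 6 samples. The part of hair follicles or eosinophils in the vehicle sample was not tested.

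The other comparisons were set beside this one for the called probes. They share no RNA sample with it. Of the 56 up-regulated probes, 30 (53.6%) were up-regulated in KO at 30 min, where 0.601% of all probes were, and these made up 12.7% of the 237 called there. In WT at 60 min 13 (23.2%) were up-regulated, against 0.583% of all probes, or 5.65% of the 230 called there. In WT at 30 min 0 were up-regulated, against 0.254% of all probes. The number called in none of the other comparisons was 23, among them both Il19 probes, Csf3, Krt6a, Lce3e, Sprr2k and Adamts4. A gene not called elsewhere was not shown to differ there.

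Of the 59 down-regulated probes, 47 (79.7%) were up-regulated in WT at 60 min, which were 20.4% of the 230 called there. In KO at 30 min 36 (61.0%) were up-regulated, or 15.2% of 237. By contrast, 31 (52.5%) were down-regulated in WT at 30 min, where 0.0964% of all probes were, and these made up 81.6% of the 38 called there. In KO at 30 min 3 were down-regulated, where 0.107% of all probes were. They were Krtap13 (-2.67), 2310034C09Rik (-3.10) and Krt36 (-1.24). In none of the other comparisons were 10 probes called, among them those of Retnla, Ear1, Ear2, Ear12, Car4, Mrgprg, Col6a5 and Cd209e. Retnla had ratios of 0.04 in KO at 30 min, 0.22 in WT at 60 min and 0.33 in WT at 30 min.

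**Figure D4:**
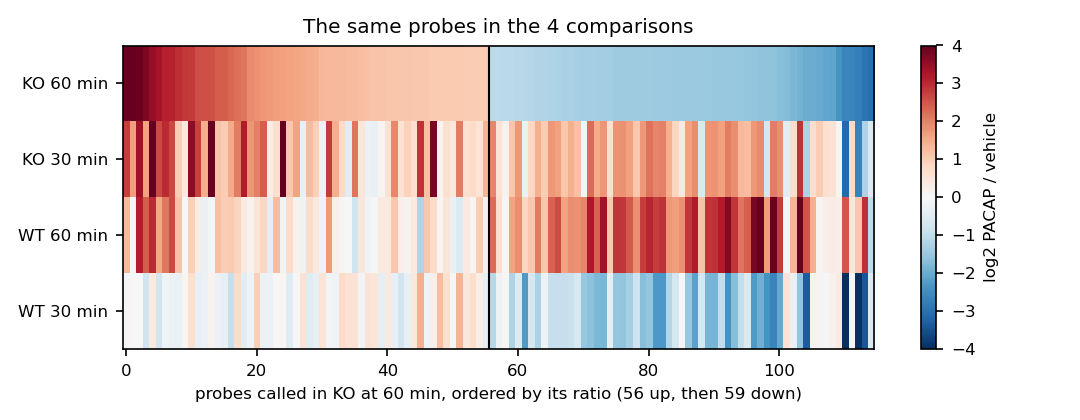
Log2 ratio of PACAP over vehicle of the probes called in KO skin at 60 min (columns, ordered by ratio) in each of the 4 comparisons (rows), on a colour scale that ends at -4 and 4. Of the 59 down-regulated probes, on the right, most are up in WT at 60 min (47 probes called) and KO at 30 min (36 probes called).

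The difference between KO at 60 min and the other 3 comparisons was tested with limma, with 1 value for each comparison. The spread in this test comes from the other 3 comparisons alone, which differ in genotype and time, and KO at 60 min is assumed to vary as they do. Of 30350 probes tested 0 (0%) passed an adjusted p of 0.05 with Benjamini-Hochberg adjustment, and 381 had an unadjusted p under 0.05. The smallest p belonged to Retnla, at -2.59 on the log2 scale for KO at 60 min minus the mean of the others (SE 0.285, limma adjusted p = 0.861). Ear12, Ear1 and Ear2 followed, with differences of -2.44, -3.02 and -2.38. These 4 genes were lower than in each of the other 3 comparisons, and their adjusted p did not pass in this small design. With the time point as a covariate 147 probes passed, 15 higher and 132 lower, and without the WT comparison at 30 min 194 passed, 20 higher and 174 lower. Both fits rest on 1 residual degree of freedom. The fit with time sets KO at 60 min against WT at 60 min alone, and its spread comes from the comparisons at 30 min. It is therefore another contrast than the one against all 3 other comparisons.

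Groups of genes tied to PACAP signalling and sweating had no called member at 60 min in KO mice. Of all gene names only 0.179% were up-regulated and 0.159% down-regulated by their brightest probe. Short lists with 0 calls are near these shares and are no result about their members. Of 28 immediate early genes, which respond to receptor stimulation within minutes, 0 were called, with a median of 0.11. Fos had -0.27 (-0.26 and -0.29), Egr1 0.12, Nr4a1 0.17 and Arc 0.89. Of 16 genes of the cAMP response 0 were called, with a median of 0.15. Ptgs2, which encodes cyclooxygenase-2, had 0.80 (0.69 and 0.91), with levels of 7.13 and 7.65. Of 24 eccrine gland genes 0 were called, with a median of 0.05, and the water channel gene Aqp5 had -0.13 (-0.14 and -0.11), with levels of 14.2 and 14.1. The ion channel genes Kcnn2, Cacna1s and Chrna1 had 0.11, 0.27 and 0.03. Among 29 skeletal muscle genes 0 were called, with a median of 0.04, while the same genes had a median of -0.80 in KO at 30 min and 0.86 in WT at 30 min. The 15 housekeeping genes had a median of -0.02, and Gapdh was at 0.07. A ratio under the threshold does not show that a gene was unaffected, since the comparison has no replicate between animals.

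**Figure D5:**
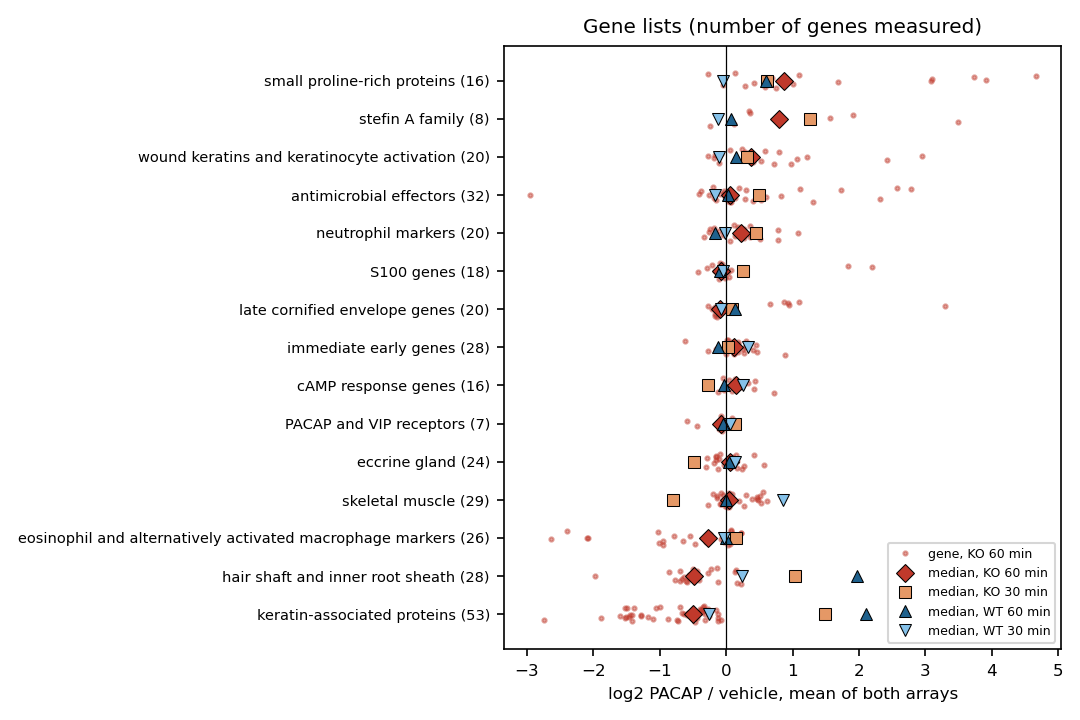
Log2 ratio of PACAP over vehicle of the genes of 15 lists in KO at 60 min (points) and the median of each list in the 4 comparisons (larger symbols). In KO skin at 60 min the small proline-rich proteins (0.88) and stefin A genes (0.79) have the highest medians, and the keratin-associated proteins (-0.50) and hair genes (-0.49) the lowest.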

How the data were processed

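Skin RNA was amplified, labelled with Cy3 and Cy5 and hybridised in 4 pairs, each on 2 dye-swapped Agilent 4x44K mouse arrays. Per the labels, the authors used Feature Extraction version 11.0.1.1, whereas the file headers give 12.0.3.1 and the published methods name yet another, older version. The deposited intensity of each channel is background-subtracted and LOWESS-normalized within the array. The deposited log10 ratios are red over green, and those of the authors' series matrix equalled the ratio of these intensities. The deposited p-value of each spot comes from the software's error model.

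Here the log2 ratio of the deposited intensities was turned to PACAP over vehicle by the dye in the labels. The 1377 control spots of each array were left out, and so were 303 and 198 outlier spots on the arrays. Of the spots, 0 were saturated. Spots of a probe and then both arrays were averaged. Calls needed a mean of 2.0-fold, the same direction and p below 0.01 on each array. A gene is given by its brightest probe unless a probe is named. Levels used normexp with an offset of 50, loess and Aquantile. limma 3.58.1 in R 4.3.3 compared KO at 60 min with the other comparisons on the probes with a signal well above background in either channel of every array. The numbers of arrays limit the precision. Python 3.11.15, pandas 2.3.3 and numpy 2.4.6 were used otherwise, and the steps were tested on simulated data. Alternatives were other thresholds, normexp and loess ratios, median centring, filters on dim probes, single arrays and other limma fits.

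Named genes were the largest calls, members of the gene lists and the receptor, ligand and sweat genes of the study. The members, lists and tests were chosen with earlier results of these data known. Gene names and probe positions (mm9) were taken from the files. Promoters came from RefSeq (GRCm38.p6), 300 bases each, and of the 54 up-regulated and 49 down-regulated gene names 29 and 41 matched by symbol.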

Additional observations from a re-analysis of the deposited data

Results flagged for a closer look

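In each group of 4 vehicle or 4 PACAP samples, a sample was looked for whose gap to its nearest neighbour took up most of the group's range, by Dixon's ratio at the 95% level. Of 104 groups 15 stood apart in this way, 10 of them by a sample of KO at 60 min, while chance flags about 1 group in 20. Since the genes were chosen for their ratios, these are no independent support. The vehicle sample of KO at 60 min was the highest for Ear1 (gap 0.957 of the range), Ear2 (0.942), Krtap20-2 (0.935), Retnla (0.891), Car4 (0.891), Ear12 (0.883) and Col6a5 (0.8292). It was also highest for the median level of the antimicrobial effectors (0.841). The PACAP sample of KO at 60 min was highest for Il19 (0.844) and Idi2 (0.833).

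On every array, 36 probes had opposite directions in KO at 60 min, where they were down-regulated, and KO at 30 min, where they were up-regulated. The same held for 47 probes between KO and WT at 60 min. For single probes between 2 comparisons these differences were not tested, since each comparison is 1 pair of RNA samples.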

How the results depend on the processing

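With 1 pair of RNA samples, the spread between animals is unknown, and dim genes such as Col6a5, Sprr2f and Il19 rest on signals near background. The 115 called probes became 375 without the p filter (93 up, 282 down), 225 at a fold of 1.5 (135 up, 90 down), 44 at a fold of 3 (26 up, 18 down) and 72 after normexp and loess (29 up, 43 down). All 72 were among the 115. A single array gave between 446 and 701 probes. The count was between 97 and 115 with p under 0.001, the fold on each array, the Feature Extraction log ratio, median centring, signals above background in both channels, outlier spots kept, the series matrix or distinct gene names. Of 103 gene values, 65 moved under normexp and loess, and 0 turned their direction. Of 32 list medians 16 moved under normexp and loess, 17 with the Cy3 array alone and 9 with the Cy5 array alone, by more than the technical spread between the arrays. The median of the eosinophil and macrophage markers was -0.11 under normexp and loess. Without the vehicle sample of KO at 60 min, a setting chosen after seeing the data, the median difference in level was 1.63 for the keratin-associated proteins on chromosome 16, 1.32 for the hair genes and 0.10 for the eosinophil and macrophage markers. These vehicle samples differ in genotype, time or slide. Against the other comparisons limma called 0 probes, and 147 with time as a covariate, 2 with single arrays and the comparison as a random block, 194 without the WT comparison at 30 min and 26 without that at 60 min. It called 0 without the KO comparison at 30 min and under the 7 other settings tried. The fit with time as a covariate set KO at 60 min against WT at 60 min alone, so its count belongs to another contrast. The causes were not tested.

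No paired analysis was possible because the replicate numbers name the dye orientation of arrays with the same RNA samples, which were averaged to 1 replicate.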

Other observations

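Among the up-regulated probes, 11 (19.6%) had their lowest level of all 8 samples in the vehicle sample of KO at 60 min. Over all probes the share was 16.1%, so the count is near that of probes in general. The 11 were Defb4, Marchf11, Slfn9, Olfr266, C230072F16Rik, 4921531P14Rik, AK087888, the unnamed probe A_55_P2051596 and 3 transcripts known by Ensembl identifiers. AK087888 had a level of 6.46 with vehicle and 7.03 with PACAP, while the other 6 samples lay between 6.96 and 7.50. Slfn9, of the Schlafen family, had 6.62 and 7.10, against 7.05 to 7.67. For both genes the PACAP sample thus lay within the range of the other comparisons.

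Some genes were up in the other 3 comparisons and near 0 in KO at 60 min, where their level was already high with vehicle. S100a7l2, an S100 protein of the epidermis, had a ratio of -0.29 here and 2.82, 1.68 and 2.59 in KO at 30 min, WT at 60 min and WT at 30 min. Its level with vehicle was 10.4 here and between 6.68 and 7.99 in the other 3 vehicle samples. Defb7, a beta-defensin, had -0.24 here and 2.13, 1.43 and 1.99 there, with a vehicle level of 9.10 against 6.48 to 6.62. The hair keratin gene Krt82 had -0.27 here and 1.40, 2.02 and 1.56 there. In limma the differences of these 3 genes had an adjusted p of 1.

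Interferon-inducible genes had a median log2 ratio of 0.25 (0.14 after normexp and loess) with 0 of 30 called in KO at 60 min, and a median of 0.41 in WT at 60 min.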
